A study of Mus musculus with 6 samples.

Results

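Transcripts of 33 genes of the integrated stress response and the unfolded protein response were followed in 6 mouse heart libraries, among 54352 genes in the deposited table. The genes were taken by symbol from a list chosen with earlier results of these data known, and every 1 of the 33 was found. Of these, 30 had a mean level of at least 5 on the regularized log (rlog) scale, a log2 scale on which values of low genes are drawn towards the gene's mean, and were tested among 13094 such genes. Fgf21, Gdf15 and Phgdh lay below that level and are given as values only. The libraries form 3 groups of 2. Control mice were on ordinary chow, with no transgene per the labels, which give no age for them. T2D empty vector and T2D dnMCUb mice were C57BL/6 animals started at 12 weeks of age on a high fat diet (60% of calories from fat) with 1 streptozotocin dose of 75 mg/kg, a toxin of insulin-producing cells, to model type 2 diabetes (T2D). Both groups then received an adeno-associated virus (AAV) by jugular injection, given 16 to 18 weeks after the toxin and 4 weeks before tissue was studied. The vector was empty in the former and encoded a FLAG-tagged, dominant negative form of mouse MCUb (dnMCUb), which belongs to the mitochondrial calcium uniporter complex, in the latter. No promoter of the vector is named in the labels, and hearts were taken 5 to 6 months after induction. Control differs from T2D empty vector in diet, streptozotocin and virus at once, so these cannot be told apart, and nothing in the labels says whether 2 libraries of a group are 2 animals.

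The endoplasmic reticulum (ER) folds secreted and membrane proteins. When unfolded proteins build up, the sensors IRE1, PERK and ATF6 switch on chaperones, oxidoreductases and the degradation of misfolded proteins, the latter through the spliced form of XBP1. PERK and related kinases also phosphorylate the initiation factor eIF2alpha, which slows most translation but favours that of ATF4, and ATF4 then drives genes for amino acid supply, serine and one-carbon metabolism. In heart muscle this integrated stress response (ISR) is known as a sign of mitochondrial trouble, with FGF21 and GDF15 as secreted signals. ATF4, ATF5 and spliced XBP1 are controlled largely after transcription, so their total mRNA is no direct measure of their activity.

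Promoter windows, from 250 bases before to 50 after the transcript start, were present in RefSeq's GRCm38.p6 table for 30 of the 33 members. Derl1, Manf and Slc7a5 had no entry. Motifs were searched on both strands. The ER stress response element ERSE, bound by ATF6 with NF-Y, was searched as CCAAT followed after 9 bases by CCACG, and ERSE-II as ATTGG followed after 1 base by CCACG. These share CCACG, and ATTGG is CCAAT read on the other strand. The C/EBP-ATF response element CARE was searched as TGATGNAAN and the unfolded protein response element UPRE as TGACGTGG. ERSE was found in windows of 5 members (Calr, Canx, Creld2, Pdia6 and Syvn1), against 0.12% of all 32851 windows and 0.14% of the 9304 tested genes with a window. ERSE-II was found in 1 member, Herpud1, against 0.04% of windows. CARE was found in 6 members (Asns, Chac1, Fgf21, Herpud1, Pck2 and Trib3), against 3.95% of windows. UPRE was found in 0 members, against 0.68% of windows. A match shows that the letters are there, not that a factor binds. The 200 bases before the start are printed below, 5′ to 3′ on the gene's strand, for 7 members that carry a match, since they show both arms of the response: ER folding genes with ERSE, Herpud1 with ERSE-II and CARE, and the ATF4 targets Asns and Chac1 with CARE. Capitals mark the matches.
Calr: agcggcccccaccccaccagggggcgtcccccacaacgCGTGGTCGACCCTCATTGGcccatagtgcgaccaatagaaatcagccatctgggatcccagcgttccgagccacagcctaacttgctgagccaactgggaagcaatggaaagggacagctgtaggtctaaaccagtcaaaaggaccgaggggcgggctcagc
Canx: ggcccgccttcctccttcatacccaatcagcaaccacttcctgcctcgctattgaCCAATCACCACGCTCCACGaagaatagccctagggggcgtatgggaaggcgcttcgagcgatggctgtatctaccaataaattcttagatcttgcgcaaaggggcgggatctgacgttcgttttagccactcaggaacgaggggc
Creld2: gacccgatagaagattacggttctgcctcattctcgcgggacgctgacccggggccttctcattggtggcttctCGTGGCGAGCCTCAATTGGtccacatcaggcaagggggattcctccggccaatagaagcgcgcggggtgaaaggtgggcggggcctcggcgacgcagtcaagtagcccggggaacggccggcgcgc
Pdia6: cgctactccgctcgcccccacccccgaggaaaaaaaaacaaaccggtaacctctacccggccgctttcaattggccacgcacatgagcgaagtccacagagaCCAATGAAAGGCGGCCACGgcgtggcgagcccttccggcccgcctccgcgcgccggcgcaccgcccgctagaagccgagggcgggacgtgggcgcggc
Herpud1: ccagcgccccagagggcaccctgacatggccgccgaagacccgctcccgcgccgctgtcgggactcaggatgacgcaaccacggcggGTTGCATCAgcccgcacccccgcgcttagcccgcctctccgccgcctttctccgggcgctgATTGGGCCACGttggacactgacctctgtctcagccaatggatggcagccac
Asns: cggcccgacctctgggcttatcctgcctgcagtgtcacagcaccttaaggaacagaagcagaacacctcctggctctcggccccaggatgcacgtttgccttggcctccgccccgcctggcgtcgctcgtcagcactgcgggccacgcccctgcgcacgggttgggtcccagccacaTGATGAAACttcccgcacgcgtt
Chac1: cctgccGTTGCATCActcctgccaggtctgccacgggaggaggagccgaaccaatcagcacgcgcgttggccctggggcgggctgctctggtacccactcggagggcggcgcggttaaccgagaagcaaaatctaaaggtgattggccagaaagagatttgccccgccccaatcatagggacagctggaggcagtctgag
The windows lie at chr8:84846932-84847131 on the minus strand for Calr, chr11:50325674-50325873 (minus) for Canx, chr15:88819446-88819645 (plus) for Creld2, chr12:17266389-17266588 (plus) for Pdia6, chr8:94386229-94386428 (plus) for Herpud1, chr6:7693210-7693409 (minus) for Asns and chr2:119351042-119351241 (plus) for Chac1. The ERSE matches began 162 bases before the start in Calr, 145 in Canx, 126 in Creld2, 98 in Pdia6 and 44 in Syvn1.

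**Figure D1:**
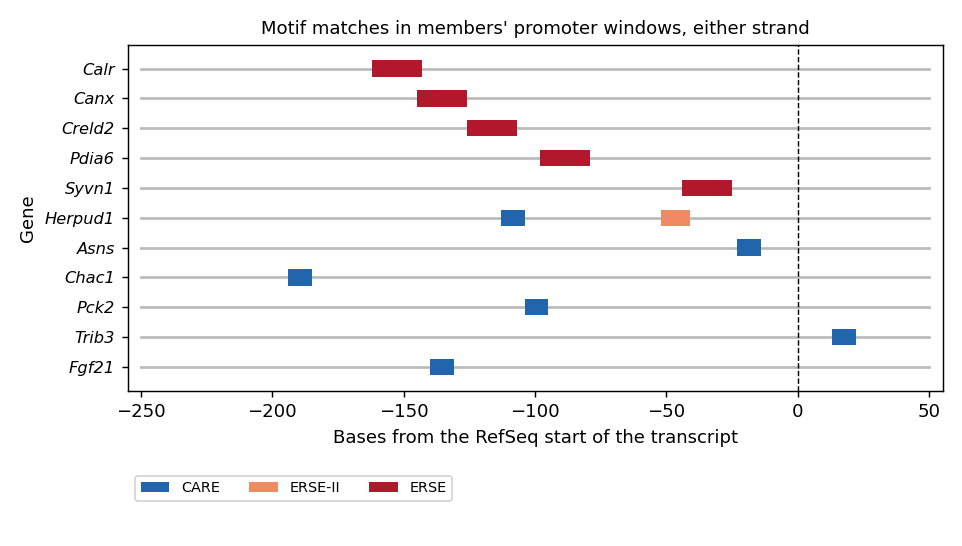
Matches to ERSE (red), ERSE-II (orange) and CARE (blue) in the promoter windows of the 11 members that hold any, placed by distance in bases from the RefSeq transcript start (dashed line). The 5 ERSE matches lie between 162 and 26 bases before the start, and that of CARE in Trib3 lies after it.

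Depth is unknown, since no counts were used. Library 1 labelled dnMCUb stood apart from the rest, at 10.82 on a first component holding 46.69% of the variance, where the others lay between -4.42 and 2.69. Mcub, the gene the vector carries in mutated form, was at 5.62 and 5.47 in T2D dnMCUb, against 5.42 and 5.47 in control and 5.48 and 5.46 in T2D empty vector (T2D dnMCUb minus T2D empty vector 0.08, SE 0.05; limma, adjusted p = 0.888). It does not verify the vector label, and whether reads of the vector were counted under it is not given, so directions involving these libraries rest on their label. The tissue label was borne out by heart muscle genes such as Myh6, at a mean of 19.0. Plasma and B cell markers, whose cells carry high levels of unfolded protein response genes, had a summed level between 5.18 and 5.24 in all libraries, with 0 of their 5 genes reaching a mean of 5 and 0 listed at 0. At such levels rlog draws values together, so this sum does not show equal content of these cells. Jchain was at 3.28 in control library 1 and between 3.09 and 3.11 elsewhere. Its deposited log2 fold in T2D empty vector over control was -4.78.

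Among members, levels are best compared per length, as the mean rlog less the log2 of the transcript length in kilobases. On that scale the ER folding genes Canx (11.4), Calr (11.0) and P4hb (10.6) and the degradation gene Herpud1 (10.7) were highest. Atf4 followed at 9.64, while Ddit3 (8.15), Trib3 (4.73) and the ATF4 targets Asns (5.08), Chac1 (4.76), Psat1 (4.75) and Sesn2 (4.10) were lower. Fgf21 was lowest at 0.69. Over the 6 libraries the tested members spanned a median of 0.17, and all tested genes 0.12. Manf spanned most, from 8.71 to 9.10, followed by Calr (0.31) and Pdia3 (0.30), each lowest in T2D empty vector library 1.

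Diabetic hearts with empty vector were compared with control hearts to ask what the diabetic state, with virus, did to these genes. All 9 ER folding genes were lower in T2D empty vector, with a median difference of -0.065, led by Manf (-0.30, SE 0.06) and Calr (-0.20, SE 0.07). All 6 tested genes of amino acid and one-carbon metabolism were higher, with a median of 0.044, led by Mthfd2 (0.15, SE 0.04), and so were all 3 tested ISR effectors (median 0.063). None of the 30 passed limma's adjusted p of 0.05, which also called 0% of all genes. In the authors' deposited table Manf fell, with a log2 fold of -0.64 and an adjusted p of 0.0172, where 0.542% of the tested genes have an adjusted p under 0.05 in either direction. At an unadjusted p under 0.05 by limma, 3 members were higher (10% of members, 3.26% of all genes) and 3 lower (10%, against 2.87%). By the authors' deposited unadjusted p under 0.05, 2 were higher and 2 lower, against 294 and 273 of the 13094 genes. The libraries of the 2 groups did not overlap in 7 members with T2D empty vector higher (23.3%, against 19.9% of all genes) and in 8 with it lower (26.7%, against 22.5%), shares near the background. The median over the 30 members was 0.010, and over all genes -0.0025; it was -0.017 without control library 1 and -0.032 without T2D empty vector library 2. Without T2D empty vector library 1, 6 of the 9 ER folding genes were lower, with a median of -0.046, and without library 2 all 9 were, with -0.099. Without T2D empty vector library 2, 4 of the 6 amino acid genes were higher, with a median of 0.022, and without library 1 their median was 0.083.

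The next question was what the cargo of the vector changed, with both groups diabetic and injected. All 9 ER folding genes were higher in T2D dnMCUb, with a median of 0.13, led by Manf (0.28, SE 0.06), Calr (0.22, SE 0.07) and Pdia4 (0.17, SE 0.05). Xbp1 and its target Edem1 were higher as well. Mthfd2 (-0.097, SE 0.04) and Chac1 (-0.065, SE 0.03) were lower, but their roles did not move as a whole. The tested amino acid and one-carbon genes were 3 higher and 3 lower (median -0.011). The tested ISR effectors were 1 higher and 2 lower (median -0.043), and the ISR regulators 4 higher and 1 lower (median 0.036). None of the members passed limma's adjusted p, which called 0% of genes, and none passed in the authors' deposited table, where 0.0611% did. At an unadjusted p under 0.05 by limma, 9 members were higher (30%, against 3.12% of all genes) and 1 lower (3.3%, against 2.53%). By the authors' deposited unadjusted p under 0.05, only 2 members were higher and 0 lower, against 168 and 70 of the 13094 genes. Of the 9 ER folding genes, 7 were higher at that threshold by limma and 2 in the authors' deposited table. The libraries of the groups did not overlap in 15 members with T2D dnMCUb higher (50%, against 15.6%) and in 3 with it lower (10%, against 16.5%). The median over the 30 members was 0.037, against -0.0005 over all genes; it was 0.063 without library 1 and 0.071 without library 2 labelled dnMCUb. The count of 10 at an unadjusted p under 0.05 rested on T2D empty vector library 1: without it 1 member was left and the ER folding median was 0.082, while all 9 genes stayed higher. The count was 6 without control library 1, control library 2 or library 2 labelled dnMCUb, 7 without library 1 labelled dnMCUb and 9 without T2D empty vector library 2. This comparison and the previous one share the T2D empty vector libraries, so a low value there lowers the first difference and raises the second.

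Hearts labelled dnMCUb were then set against control. Of the 30 members 23 were higher, with a median of 0.041, against -0.0023 over all genes. No member passed limma's adjusted p, which called 0.0687% of genes, nor the authors' adjusted p in their deposited table, which 0.794% of genes passed. At an unadjusted p under 0.05, 4 members were higher (13.3%, against 5.89% of genes) and 0 lower (against 5.54%): Psat1 (0.12, SE 0.03), Edem1 (0.17, SE 0.05), Pdia4 (0.14, SE 0.05) and Ddit3 (0.13, SE 0.05). Their limma adjusted p-values were 0.231, 0.310, 0.390 and 0.391. By the authors' deposited unadjusted p under 0.05, 1 member was higher and 0 lower, against 436 and 307 of the 13094 genes. Libraries did not overlap in 14 members with T2D dnMCUb higher (46.7%, against 20.2%) and in 1 with it lower (3.3%, against 22.7%). Without control library 1 the count of 4 was 1, and without library 2 labelled dnMCUb it was 7. Of the 9 ER folding genes 7 were higher, with a median of 0.026. In 5 of them both libraries labelled dnMCUb lay above both controls (55.6%, against 20.2% of all genes), and 1, Pdia4, had an unadjusted p under 0.05.

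**Figure D2:**
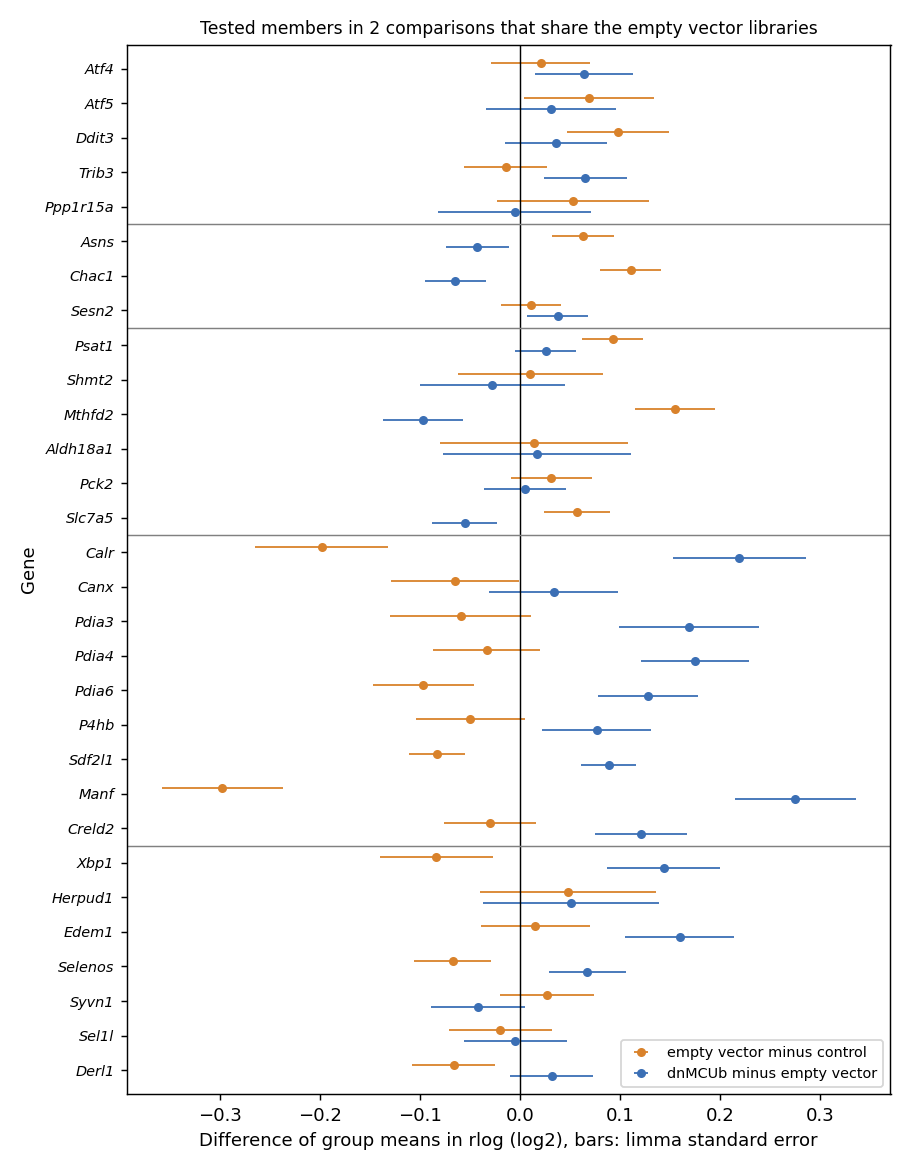
Differences of group means in rlog (log2) for the 30 tested members, grouped by role from ISR regulators at the top to XBP1 and degradation genes at the bottom, for T2D empty vector minus control (orange) and T2D dnMCUb minus T2D empty vector (blue). Bars are limma standard errors. The 9 ER folding genes lie left of 0 in the first and right of 0 in the second, and the 2 sets share the empty vector libraries.

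The ER folding genes were read library by library. Manf, an ER protein released under calcium loss from the ER, lies on the minus strand of chr9:106888753-106891415 (GRCm38, ENSMUSG00000032575.16). The control libraries gave rlog values of 9.01 and 9.10, those with empty vector 8.71 and 8.80, and those labelled dnMCUb 8.96 and 9.10. Both empty vector libraries lay below the 4 others, and control and dnMCUb overlapped. The difference from control was -0.30 (SE 0.06; limma, adjusted p = 0.491), and that of T2D dnMCUb from T2D empty vector 0.28 (SE 0.06, adjusted p = 0.780). The adjusted p of the first was 0.0789 with only the 2 groups compared in the fit. Manf exons overlap those of Rbm15b on the same strand and of Dcaf1 on the other in the GENCODE M21 annotation. Rbm15b differed by 0.057 (SE 0.05) and Dcaf1 by -0.029 (SE 0.04) between T2D empty vector and control.

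Calr encodes calreticulin, the calcium-binding lectin chaperone of the ER (minus strand of chr8:84841850-84846934). It stood at 12.09 and 12.20 (control), 11.89 and 12.00 (T2D empty vector) and 12.13 and 12.20 (T2D dnMCUb). The empty vector libraries were again below the 4 others. The differences were -0.20 (SE 0.07; limma, adjusted p = 0.778) and 0.22 (SE 0.07, adjusted p = 0.784). A processed copy, Calr-ps, was at a mean of 2.95. The partner lectin calnexin, Canx, was at 13.38 and 13.35, 13.30 and 13.30, and 13.28 and 13.38 in the same order of groups, so that dnMCUb overlapped both other groups.

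Protein disulfide isomerases form and reshuffle disulfide bonds in the ER. Pdia6 was at 10.73 and 10.73 (control), 10.58 and 10.68 (T2D empty vector) and 10.76 and 10.76 (T2D dnMCUb), a difference of 0.13 (SE 0.05; limma, adjusted p = 0.869) between the latter groups. Its libraries fell in 3 separate bands with empty vector lowest. Pdia4 was at 9.87 and 9.86, 9.77 and 9.90, and 9.99 and 10.03, with T2D dnMCUb above the 4 others by 0.17 over T2D empty vector (SE 0.05, adjusted p = 0.784). Empty vector spanned control for Pdia4. Pdia3 was at 10.86 and 10.95, 10.76 and 10.93, and 11.05 and 10.97, with dnMCUb again highest (0.17, SE 0.07, adjusted p = 0.869 against T2D empty vector). P4hb, the founding isomerase, was at 12.11 and 12.11, 12.02 and 12.11, and 12.14 and 12.14, a difference of 0.077 (SE 0.05) between T2D dnMCUb and T2D empty vector. The empty vector libraries of Pdia6 and P4hb were below the 4 others, by less in library 2 than in library 1.

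Sdf2l1, a cofactor of the chaperone BiP, was at 6.11 and 6.14 (control), 6.04 and 6.04 (T2D empty vector) and 6.12 and 6.14 (T2D dnMCUb). The differences were -0.083 (SE 0.03; limma, adjusted p = 0.778) and 0.088 (SE 0.03, adjusted p = 0.801), and the authors' deposited table, without the pull towards the mean, has log2 folds of -0.56 and 0.60. Creld2, a small ER protein induced by ER stress, was at 7.66 and 7.70, 7.60 and 7.70, and 7.78 and 7.76, with dnMCUb above both other groups and 0.12 over T2D empty vector (SE 0.05, adjusted p = 0.869). Seen over the 9 genes, the mean deviation from each gene's average was 0.0022 and 0.038 (control), -0.13 and -0.036 (T2D empty vector) and 0.046 and 0.076 (T2D dnMCUb).

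**Figure D3:**
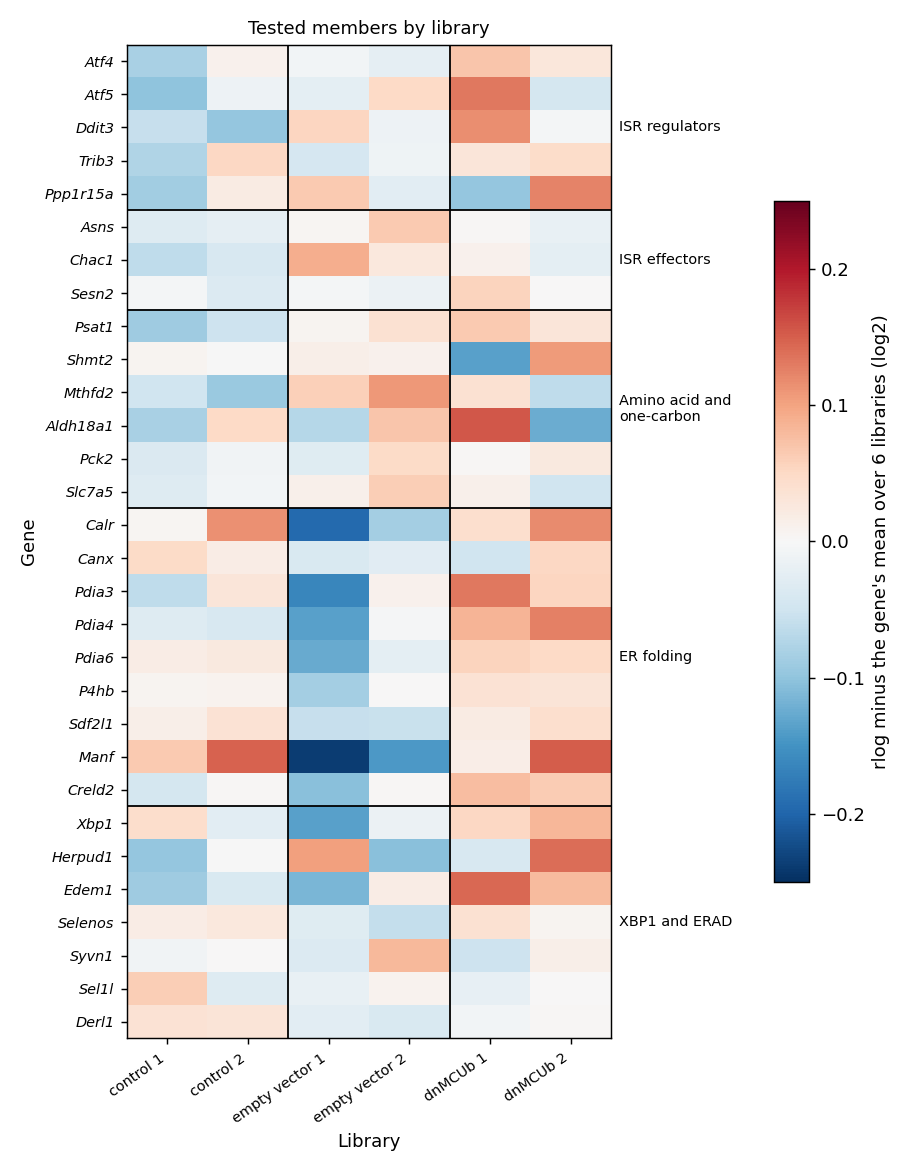
Heat map of the 30 tested members (rows, by role) in the 6 libraries (columns, by group), coloured by rlog minus the gene's mean over the libraries (log2; blue low, red high). The mean of the 9 ER folding genes is lowest in T2D empty vector library 1, where Manf reaches 8.71 against a mean of 8.95.

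The XBP1 and ER-associated degradation genes had group medians of -0.020 and 0.051 in T2D empty vector against control and T2D dnMCUb against T2D empty vector. Xbp1, the transcription factor gene spliced by IRE1, was at 10.59 and 10.52 (control), 10.41 and 10.53 (T2D empty vector) and 10.60 and 10.63 (T2D dnMCUb), which was above the 4 others. Its differences were -0.084 (SE 0.06; limma, adjusted p = 0.851) and 0.14 (SE 0.06, adjusted p = 0.869). Edem1, which hands misfolded glycoproteins to degradation, was at 8.67 and 8.72, 8.64 and 8.78, and 8.90 and 8.84, with T2D dnMCUb again highest. It was 0.16 over T2D empty vector (SE 0.05, adjusted p = 0.869).

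Herpud1, an ER membrane protein that promotes degradation, was at 11.52 and 11.62, 11.72 and 11.52, and 11.58 and 11.76 in control, T2D empty vector and T2D dnMCUb, and all groups overlapped. Its differences of 0.048 and 0.051 were within the SE of 0.09. Of the ubiquitin ligase complex, Syvn1, the ligase itself, differed by 0.027 and -0.042 (SE 0.05) and its adaptor Sel1l by -0.020 and -0.0050 (SE 0.05). Selenos, a selenoprotein of the degradation complex, was at 8.57 and 8.58 (control), 8.52 and 8.49 (T2D empty vector) and 8.59 and 8.56 (T2D dnMCUb). Derl1, part of the export channel, was at 10.25 and 10.25, 10.19 and 10.18, and 10.21 and 10.22. Both were lowest in the empty vector libraries, by a difference of -0.067 from control each (SE 0.04 each), and neither passed.

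Counted over roles, both T2D empty vector libraries were below the 4 others in 7 of the 30 tested members, against 5.64% of all genes. They were Manf, Calr, Pdia6, P4hb, Sdf2l1, Selenos and Derl1. They were above the 4 others in 3 tested members (10%), Asns, Chac1 and Mthfd2, also against 5.64%. For Asns the margin was narrow, with 6.073 in T2D empty vector library 1 against 6.070 in library 1 labelled dnMCUb. This pattern was looked for after the values were seen.

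**Figure D4:**
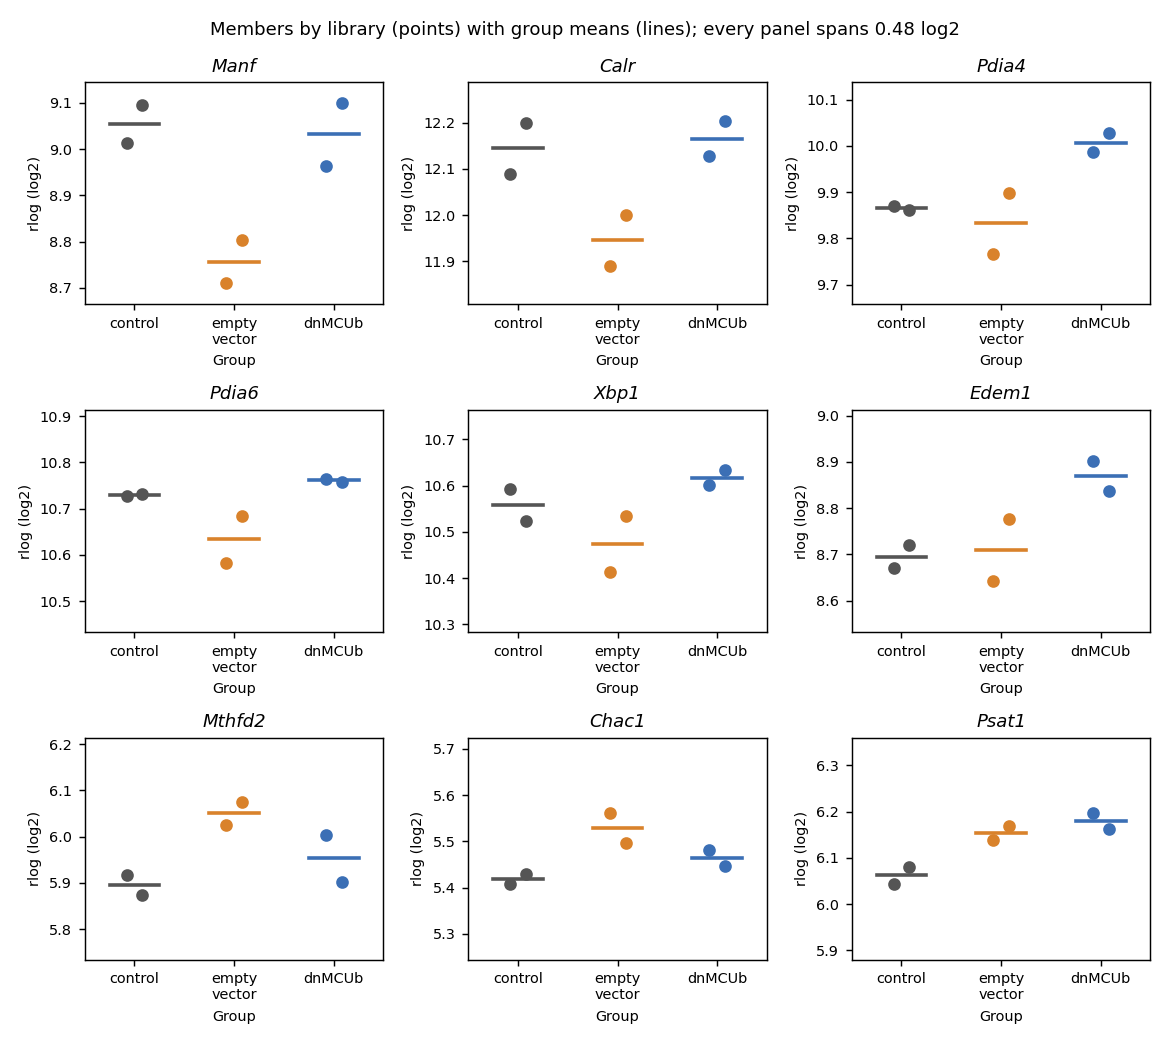
rlog (log2) of 9 members in each library (points) with group means (lines); every panel spans the same width on the log2 scale. Manf and Calr are lowest in the 2 empty vector libraries, Pdia4, Xbp1 and Edem1 highest in the 2 labelled dnMCUb, and Mthfd2 and Chac1 highest in empty vector.

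Of the ISR regulators, Atf4 was at 10.34 and 10.43 (control), 10.42 and 10.40 (T2D empty vector) and 10.49 and 10.45 (T2D dnMCUb). T2D dnMCUb lay above the 4 others, by 0.064 over T2D empty vector and 0.084 over control (SE 0.05; limma, adjusted p = 0.910 and 0.539). Atf5, a relative induced by mitochondrial stress, was at 8.20 and 8.29, 8.28 and 8.35, and 8.43 and 8.26, with overlap throughout. Ddit3, which encodes the death-promoting factor CHOP, was at 7.91 and 7.88, 8.03 and 7.96, and 8.09 and 7.97. Both diabetic groups were above control, by 0.098 (SE 0.05, adjusted p = 0.823) in empty vector and 0.13 (SE 0.05, adjusted p = 0.391) in dnMCUb, and overlapped each other. Ddit3 overlaps Mars on the other strand, which differed by 0.044 and -0.041 (SE 0.04) in the same comparisons.

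Trib3, a pseudokinase induced by CHOP, was at 5.67 and 5.80 (control), 5.70 and 5.73 (T2D empty vector) and 5.78 and 5.79 (T2D dnMCUb). Ppp1r15a, the phosphatase subunit that reverses eIF2alpha phosphorylation, was at 8.29 and 8.40, 8.45 and 8.35, and 8.28 and 8.50. Its libraries labelled dnMCUb were the lowest and the highest of the 6.

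Among ISR effectors, Chac1, an enzyme that breaks down glutathione, was at 5.41 and 5.43 (control), 5.56 and 5.50 (T2D empty vector) and 5.48 and 5.45 (T2D dnMCUb). The groups fell in 3 bands with empty vector highest, by 0.11 over control (SE 0.03; limma, adjusted p = 0.684). The authors' deposited table has a log2 fold of 1.03 (adjusted p = 0.901). Asns, asparagine synthetase, showed the same order at 6.035 and 6.044, 6.073 and 6.132, and 6.070 and 6.049, but its bands were parted only in the third decimal. The difference between T2D empty vector and control was 0.063 (SE 0.03, adjusted p = 0.805). Sesn2, which restrains the growth kinase mTORC1 under amino acid shortage, was at 5.89 and 5.86, 5.89 and 5.88, and 5.95 and 5.89.

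The secreted hormones were low. Fgf21 stood between 0.60 and 0.62 and Gdf15 between 4.41 and 4.49 in all libraries. Gdf15 was at 4.41 and 4.41 (control), 4.49 and 4.45 (T2D empty vector) and 4.45 and 4.46 (T2D dnMCUb), so that both diabetic groups were above control. The authors' deposited table gives Gdf15 a log2 fold of 0.995 and Fgf21 one of 2.75 in T2D empty vector over control, with p-values of 0.122 and 0.263 and an adjusted p of 1 each. At such levels the rlog scale holds back most of a difference.

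Among enzymes of amino acid and one-carbon metabolism, Mthfd2, a mitochondrial folate enzyme, was at 5.92 and 5.87 (control), 6.03 and 6.07 (T2D empty vector) and 6.00 and 5.90 (T2D dnMCUb). The empty vector libraries were above the 4 others, by 0.15 over control (SE 0.04; limma, adjusted p = 0.646), and T2D dnMCUb was lower than they by 0.097 (difference -0.097, SE 0.04, adjusted p = 0.869). The authors' deposited table has log2 folds of 1.07 (adjusted p = 0.409) and -0.59 (adjusted p = 0.99993). Psat1, of serine synthesis, was at 6.04 and 6.08, 6.14 and 6.17, and 6.20 and 6.16, above control in both diabetic groups, by 0.092 (SE 0.03, adjusted p = 0.778) and 0.12. Slc7a5, a transporter of large neutral amino acids, was at 5.75 and 5.78, 5.80 and 5.85, and 5.80 and 5.74.

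The other enzymes showed no such order. Shmt2, the mitochondrial serine hydroxymethyltransferase, was at 8.73 and 8.72 (control), 8.74 and 8.74 (T2D empty vector), but at 8.59 and 8.83 with dnMCUb. Aldh18a1, of proline synthesis, was at 7.81 and 7.94, 7.82 and 7.96, and 8.05 and 7.77. In both genes the libraries labelled dnMCUb were the lowest and highest of the 6. Pck2, the mitochondrial form of phosphoenolpyruvate carboxykinase, lay between 7.61 and 7.69. Phgdh, which opens serine synthesis, lay between 2.92 and 2.96.

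Of 66 further genes of the pathway outside the member list, 61 were tested. Against control, T2D empty vector had 28 higher and 33 lower (median -0.0080), T2D dnMCUb had 33 higher and 28 lower (median 0.0076), and T2D dnMCUb against T2D empty vector had 32 and 29 (median 0.0024). limma called 0 of them in each comparison, and few had an unadjusted p under 0.05. These were 3 higher and 2 lower in T2D empty vector against control (4.9% and 3.3%, against 3.26% and 2.87% of all genes). They were 7 higher and 2 lower in T2D dnMCUb against control (11.5% and 3.3%, against 5.89% and 5.54%), and 3 higher and 1 lower in T2D dnMCUb against T2D empty vector (4.9% and 1.6%, against 3.12% and 2.53%). The 12 further ER chaperones and oxidoreductases had the directions of the ER folding members. Of these 10 were lower in T2D empty vector than in control (median -0.034) and 12 higher with dnMCUb than with empty vector (median 0.10). Without T2D empty vector library 1 these were 8 (median -0.024) and 11 (median 0.056), without library 1 labelled dnMCUb the 12 were 10, with a median of 0.075, and without library 2 labelled dnMCUb their median was 0.063.

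Hspa5, the master ER chaperone BiP, was at 13.66 and 13.65 (control), 13.40 and 13.46 (T2D empty vector) and 13.48 and 13.63 (T2D dnMCUb). Control was above both diabetic groups. It differed by -0.23 in T2D empty vector (SE 0.07; limma, adjusted p = 0.762) and fell in the authors' deposited table, with a log2 fold of -0.32 and an adjusted p of 0.00701. Dnajb9, an ER cofactor of BiP, and Hsp90b1, the ER form of HSP90, were 0.15 (SE 0.06) and 0.16 (SE 0.07) higher with dnMCUb than with empty vector (adjusted p = 0.869 each). Against control, Txndc5, an ER thioredoxin, had the smallest p for T2D dnMCUb (0.18, SE 0.08, adjusted p = 0.464).

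Of 17 genes for sensors, eIF2 and eIF2B, 8 were higher and 9 lower in T2D empty vector than in control (median -0.0055). In T2D dnMCUb 7 were higher and 10 lower than in T2D empty vector (median -0.0058). Against control, T2D dnMCUb had 8 higher and 9 lower (median -0.016). Of this list, Ern1, which encodes IRE1, was higher in T2D empty vector than in control by 0.15 (SE 0.04; limma, adjusted p = 0.684). Eif2ak3, which encodes PERK, was higher in T2D dnMCUb than in control by 0.16 (SE 0.05, adjusted p = 0.319) and than in T2D empty vector by 0.13 (SE 0.05, adjusted p = 0.869). Of 11 tested further ATF4 and CHOP targets 9 were higher in each diabetic group than in control. The smallest p-values in this list were those of Slc7a1, a cationic amino acid transporter, in T2D empty vector against control (-0.18, SE 0.06), and of Vldlr, a lipoprotein receptor, in T2D dnMCUb against T2D empty vector (-0.18, SE 0.07). Cebpb, a partner of ATF4 that also responds to inflammation, was at 8.06 and 8.24 (control), 8.49 and 8.34 (T2D empty vector) and 8.41 and 8.70 (T2D dnMCUb), above control by 0.27 with empty vector (SE 0.10, adjusted p = 0.805) and by 0.41 with dnMCUb (SE 0.10, adjusted p = 0.213). It rose in T2D dnMCUb over control in the authors' deposited table (log2 fold 1.02, adjusted p = 0.0141). Cytosolic tRNA synthetases, which ATF4 also induces, were 11 of 12 lower with dnMCUb than with empty vector (median -0.027) and 10 of 12 lower than in control (median -0.040), with 0 passing. Their smallest p-values belonged to Tars (-0.060, SE 0.05, T2D empty vector minus control), Mars (-0.085, SE 0.04, T2D dnMCUb minus T2D empty vector) and Iars (-0.13, SE 0.05, T2D dnMCUb minus control). Of the 9 tested further degradation genes, Edem2 was higher in T2D empty vector by 0.11 (SE 0.03, adjusted p = 0.730), and the median was -0.011. Edem2 also had the smallest p of the list for T2D dnMCUb against control (0.073, SE 0.03), and Vcp, the ATPase that pulls proteins out of the ER, for T2D dnMCUb against T2D empty vector (-0.095, SE 0.05).

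Among all tested genes with ERSE or ERSE-II in their window, 6 members and 16 others, 4 members and 12 others were lower in T2D empty vector than in control (medians -0.048 and -0.025). In T2D dnMCUb 5 members and 13 others were higher than in T2D empty vector (medians 0.086 and 0.021). Of all 13094 genes tested, 6781 were lower in the former comparison and 6488 higher in the latter. The 16 others include Hspa5, Hsp90b1, Dnajb11 and Dnajc3, which also belong to the further ER chaperones counted above, so these counts are not separate. Syvn1 and Herpud1, which carry the motifs, did not share the direction of Calr, Canx, Creld2 and Pdia6 in the comparison with control.

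Values of markers of other cells stand beside these results, and 0 of 5 adipocyte markers reached a mean of 5. All 7 fibroblast markers were higher with dnMCUb than with empty vector (median 0.11) and all 7 higher in T2D empty vector than in control (median 0.10), with the libraries of the groups overlapping in all 7 in both comparisons. The summed log2 level of the fibroblast markers ran from 14.74 to 14.85 in control, 14.74 to 15.05 in T2D empty vector and 14.82 to 15.33 in T2D dnMCUb, highest in library 1 labelled dnMCUb. Macrophage markers were 7 of 7 higher with dnMCUb than with empty vector (median 0.17; 11.92 to 11.98 against 12.04 to 12.19). Red cell markers were 5 of 5 higher (median 0.88; 11.70 to 11.73 against 12.47 to 13.00), and control, at 11.72 to 12.64, overlapped both. The mean of all 4 tested atrial markers was lower in T2D empty vector than in control, but the libraries were apart only for Nppa. For Myl7, Myl4 and Sln control library 2 lay below both empty vector libraries. The summed atrial level was 11.28 to 11.55 in control, 10.46 to 10.54 in T2D empty vector and 10.54 to 12.15 in T2D dnMCUb. It was highest in library 1 labelled dnMCUb. The mean deviation of the 4 markers was 1.34 in that library, 0.70 in control library 1 and between -0.62 and -0.41 in the others. All 4 were higher with dnMCUb than with empty vector (median 0.85), with the libraries apart only for Nppa. Heart muscle genes (Myh6, Tnnt2, Tnni3, Actc1, Ryr2, Myl2 and Mb), a list not restricted to the ventricle, were read as well. They were lower in T2D empty vector than in control in 6 of 7 (20.01 to 20.02 against 20.10 to 20.19). In T2D dnMCUb against control, these heart muscle genes were 7 of 7 lower (median -0.19, libraries apart in 6). Macrophage markers were 7 of 7 higher (median 0.19, apart in 6) and fibroblast markers 7 of 7 higher (median 0.24, apart in 3). Endothelial markers were 3 of 5 lower in T2D empty vector than in control (median -0.0027). With dnMCUb, 3 of 5 were higher than with empty vector (median 0.039). Smooth muscle and pericyte markers were 4 of 5 lower and 3 of 5 higher (medians -0.053 and 0.0026). The 2 tested skeletal muscle markers were lower in both comparisons (medians -0.17 and -0.23). Ckm fell with empty vector against control in the authors' deposited table (log2 fold -0.34, adjusted p = 0.00688). No marker was listed at 0. Fewer cells of a type and less RNA per cell cannot be told apart in bulk tissue, and the part of these shifts in the members' differences was not tested.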

How the data were processed

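Per the labels' protocols, heart RNA was depleted of ribosomal RNA and made into stranded libraries. Tools listed without a role in the submitters' processing notes are STAR 2.5.2a, DESeq2 and bcl2fastq 2.20.0.422, and the builds listed are GRCm38, mm10 and hg38. How reads were counted, and with which strand setting, is not given in the sources used here, so overlapping genes on opposite strands may share reads. Besides Manf, Ddit3 and Atf5, this concerns Shmt2 (Ndufa4l2, mean 7.81), Pdia3 (Catsper2, 6.01) and Syvn1 (Mrpl49, 9.53), counting partners with a mean of at least 5. The authors' deposited expression values are rlog (log2 scale), and they also deposited log2 fold changes with p-values and adjusted p-values for each pair of groups. An adjusted p of 1 there may stand for no value. Among the genes called there, rlog differences were a median 0.582, 0.465 and 0.509 of those folds (T2D empty vector minus control, T2D dnMCUb minus T2D empty vector, T2D dnMCUb minus control). All called folds had the sign of the rlog difference, second group minus first. Depth is unknown, so no counting interval is given.

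The fit used limma 3.58.1 (R 4.3.3) over the 13094 genes with a mean of at least 5, all 6 libraries in 1 fit with a term per group (3 residual and 4.6 prior degrees of freedom), a mean-variance trend and Benjamini-Hochberg adjustment over all genes. Errors are limma standard errors. The p-values reflect only how much the libraries of a group differ, which may be technical. An exact test of 2 libraries against 2 could not reach 0.05 and was not used. Members and lists were chosen with earlier results of these data known. Every member is accounted for. Per-library values are given for members with an unadjusted p under 0.05 and for Atf4, Ddit3, Xbp1 and Herpud1. Of each further pathway list the gene with the smallest p per comparison is named, as is each gene with a deposited adjusted p under 0.05. Of the 33 promoter windows of members, 30 ended in bases found in GENCODE M21 transcripts of the gene on its own strand, and 0 on the other. Alternatives covered the filter, scaling, libraries in the fit, trend, block and each library left out.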

Additional observations from a re-analysis of the deposited data

How the results depend on the processing

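No member passed limma's adjusted p in any comparison under any alternative. Over all genes, limma called 0 in T2D empty vector minus control, but 30 with only the 2 groups compared, 0 to 30 with a library left out, and 71 pass in the authors' deposited table. T2D dnMCUb minus T2D empty vector had 0, with 0 to 14 when a library was left out (14 without library 1 labelled dnMCUb) and 8 in the authors' deposited table. T2D dnMCUb minus control had 9, with 29 at a mean rlog of at least 7, 104 in the authors' deposited table, and 0 with no filter, median centring, quantile normalization, only the 2 groups compared, no trend or the replicate block. Leaving out a library gave 0 to 743 (743 without library 2 and 89 without library 1 labelled dnMCUb). The cause was not tested.

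The median over members ranged from -0.0321 to 0.0192 in T2D empty vector minus control with a library left out, and was -0.0252 at a mean of at least 7, where fewer genes were tested. It ranged from 0.0366 to 0.0714 in T2D dnMCUb minus T2D empty vector and from 0.0236 to 0.0432 in T2D dnMCUb minus control. The alternatives for counts at an unadjusted p under 0.05 and for role groups were chosen after seeing the data. Those counts were 6 (2 at a mean of at least 7; 4 to 7 with a library left out), 10 (6 with only the 2 groups compared; 1 to 9) and 4 (1 to 7). Amino acid enzymes higher in T2D empty vector numbered 3 at a mean of at least 7. These were Shmt2, Aldh18a1 and Pck2, the only genes of that role left at this level, so no direction changed.

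Same-numbered libraries of different groups had correlations of -0.0876, -0.0133 and -0.5112 in their deviations from the group means, so same-numbered libraries did not deviate alike. The -0.5112 was between T2D empty vector and T2D dnMCUb. With 2 libraries a group, it means that library 1 of either group deviated partly like library 2 of the other. The replicate block goes by number and does not take up this shared part, whose cause was not tested. With the replicate block, 6 members had an unadjusted p under 0.05 in T2D dnMCUb minus T2D empty vector. Depth is unknown, and with 2 libraries a group the SE limits what can be called.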
